A study of Mus musculus with 14 samples.

Results

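The mouse miRNAs named miR-669 to miR-721 are a run of names in a registry that numbers miRNAs in order of entry, so neighbouring numbers do not mark a shared family, place or function. They were chosen here as all array probes whose name holds a mouse miRNA of those numbers, which gave 48 probes of 343 named for mouse miRNAs and of 1309 named for miRNAs of any species. The numbers covered were miR-669 (a, b and c), miR-671, miR-677 to miR-715 and miR-717 to miR-721. For miR-693 the probe named the 5p arm. The choice used names only, and no measured value.

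The arrays profiled adherent peritoneal macrophages of BALB/c mice, either wild type or knockout for the IL-4 receptor (IL-4R KO), the receptor that carries IL-4 and IL-13 signals. Cells were elicited with thioglycollate, a sterile irritant, and taken at day 3 (3 arrays of each genotype), or by a peritoneal implant of the filarial nematode Brugia malayi and taken at day 21 (4 arrays of each genotype). The series names the cells of the implant as alternatively activated macrophages, and all cells were over 80% pure for F4/80 and CD11b. The elicitation and the day cannot be told apart, the receptor's own mRNA has no probe, and nothing in the labels says that replicates came from separate animals. The p-values therefore speak for the spread among these arrays, part or all of which may be technical.

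A miRNA is cut from a hairpin transcript and guides silencing of mRNAs that pair with its seed, bases 2 to 8 of the mature strand. Many of the hairpins numbered here lie within introns of protein-coding genes and can be made with the host transcript. Some of the names, miR-689, miR-710 and miR-720 among them, were later questioned as fragments of other RNAs such as tRNA. A probe measures any RNA that pairs with it, so signal under such a name is signal of the probe, not proof of a miRNA.

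The RefSeq entries searched, which left out a chromosome, held a mature sequence under the same name for 26 of the 48 members. The other 22, among them miR-689, miR-720, miR-709 and miR-671, are given by name only. The mature strands shown are those of bright members, of members that differed most between groups and, at the end, one whose seed is shared, with the seed in capitals and coordinates on GRCm38.p6. They are written 5′ to 3′.
miR-690 (chr16:28599940-28599961, minus strand): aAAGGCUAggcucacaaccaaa
miR-711 (chr9:108969970-108969991, plus strand): gGGACCCGgggagagauguaag
miR-706 (chr6:120034290-120034311, minus strand): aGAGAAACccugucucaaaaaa
miR-705 (chr6:85336341-85336360, minus strand): gGUGGGAGguggggugggca
miR-691 (chr16:74342005-74342026, minus strand): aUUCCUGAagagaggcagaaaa
miR-710 (chr8:64514401-64514422, minus strand): cCAAGUCUuggggagaguugag
miR-682 (chr13:75645119-75645139, plus strand): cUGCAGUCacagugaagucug
miR-718 (chrX:74023857-74023877, minus strand): cUUCCGCCcggccgggugucg
miR-721 (chr5:136375777-136375797, minus strand): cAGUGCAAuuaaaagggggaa
miR-130a-3p (chr2:84741116-84741137, minus strand), not a member: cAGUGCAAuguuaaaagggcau

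The 26 sequences carried 26 distinct seeds, so no seed was shared within the set. Outside it, 3 members share a seed with other mature mouse miRNAs among the entries searched. miR-721 shares its seed with miR-130a-3p, as the last lines show, and with miR-130b-3p, miR-130c, miR-301a-3p, miR-6341 and miR-6389. miR-686 shares its seed with miR-7231-3p, and miR-705 with miR-6922-5p, miR-6993-5p and miR-7008-5p. GC content ran from 33.3% for miR-703 to 81.0% for miR-718. Over the 26 members its Spearman rho with mean signal was -0.11, a description across probes that share their arrays.

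Hairpin genes of 39 members were found in RefSeq with the same chromosome left out, 56 genes in all. Of these members, 32 had a hairpin within the span of a protein-coding gene, strand not considered. The hosts of brighter members were Fgf12 for miR-690, Rfx1 for miR-709, Col7a1 for miR-711, Wnk1 for miR-706, Chpf2 for miR-671, Rab11fip5 for miR-705 and Robo2 for miR-691. All 14 hairpins of miR-669a, miR-669b and miR-669c lie in Sfmbt2, the imprinted gene whose intron holds a large miRNA cluster. The hairpins of miR-710 and miR-682 overlap no protein-coding or long non-coding RNA gene of that table, and other classes of gene were not searched.

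Each member had 3 spots on each of 14 arrays, and levels are given as normalised log2 intensity of 1 dye. A probe was held to be above blanks on an array where its net intensity (foreground minus local background) passed the 95th percentile of blank and negative control spots. That percentile ran from 12.6 to 111 intensity units, so counts above blanks depend on an array's blank spots as well as on level. Between 11 and 36 members passed it on an array, out of 41 to 279 mouse probes. Nematode wild type replicate 4 stood apart: it correlated with its group at a mean r of 0.820, where the other 13 arrays had 0.903 to 0.969, and its blank percentile was the highest. The 7 slides held 2 arrays each, all of 1 group except slide 12, which paired replicate 3 of thioglycollate wild type with replicate 1 of thioglycollate IL-4R KO, and slides were scanned group after group. No slide held nematode arrays of both genotypes, and none held arrays of both elicitations. Genotype after nematode elicitation, and elicitation in either genotype, therefore cannot be told apart from slide. The number of arrays limits the precision of every value.

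All 6 macrophage and myeloid miRNA markers were measured, with a summed net intensity of 4148 to 11510 on an array. It was 6973 to 11250 in thioglycollate wild type and 10860 to 11510 in thioglycollate IL-4R KO. After nematode elicitation it was 4148 to 8008 in wild type and 5322 to 8926 in IL-4R KO. The sum was carried by miR-21, miR-223, miR-142-3p and miR-142-5p. miR-146 and miR-155 were dim: miR-146 read 24.1 to 49.9 units on the nematode wild type arrays and was above blanks on 2 of those 4, and miR-155 read 32.8 to 117 there and was above blanks on 3. The summed intensity of 2 erythroid markers was 15.3 to 109, of 2 endothelial markers 23.3 to 114, of 7 stromal and mesothelial markers 132 to 420, of 7 epithelial markers 85.6 to 243, and of the 2 muscle markers present 32.2 to 77.0. No erythroid, endothelial or muscle marker was above blanks on 3 or more arrays of any group, and the liver marker was not measured under the name sought. Of the stromal markers, miR-10a was above blanks on 3 arrays each of thioglycollate IL-4R KO, nematode wild type and nematode IL-4R KO. miR-199b was so on 3 arrays each of thioglycollate IL-4R KO and nematode wild type (log2 means 6.32 and 6.83). It was so on 0 in nematode IL-4R KO (6.03). The epithelial marker miR-203 was so on 3 nematode IL-4R KO arrays. The 5 lymphocyte markers are given with miR-689.

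Most members gave little signal, and a few were among the brightest probes on the arrays. Of the 48, 6 were above blanks on all 14 arrays (miR-709, miR-690, miR-720, miR-711, miR-706 and miR-671) and 4 more on 13 arrays (miR-689, miR-705, miR-691 and miR-685). Another 22 were above blanks on 3 to 12 arrays, 13 on 1 or 2, and 3 (miR-719, miR-680 and miR-708) on none. The share above blanks on 3 or more arrays was 66.7%, against 67.1% of all mouse probes. A mean log2 intensity of 8 or more was reached by 8 of 48 members and by 19 of the 295 other mouse probes. The medians were 6.21 and 6.19, near the floor that the offset sets. Probes bind with different strength, so brightness does not rank amounts of RNA.

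**Figure D1:**
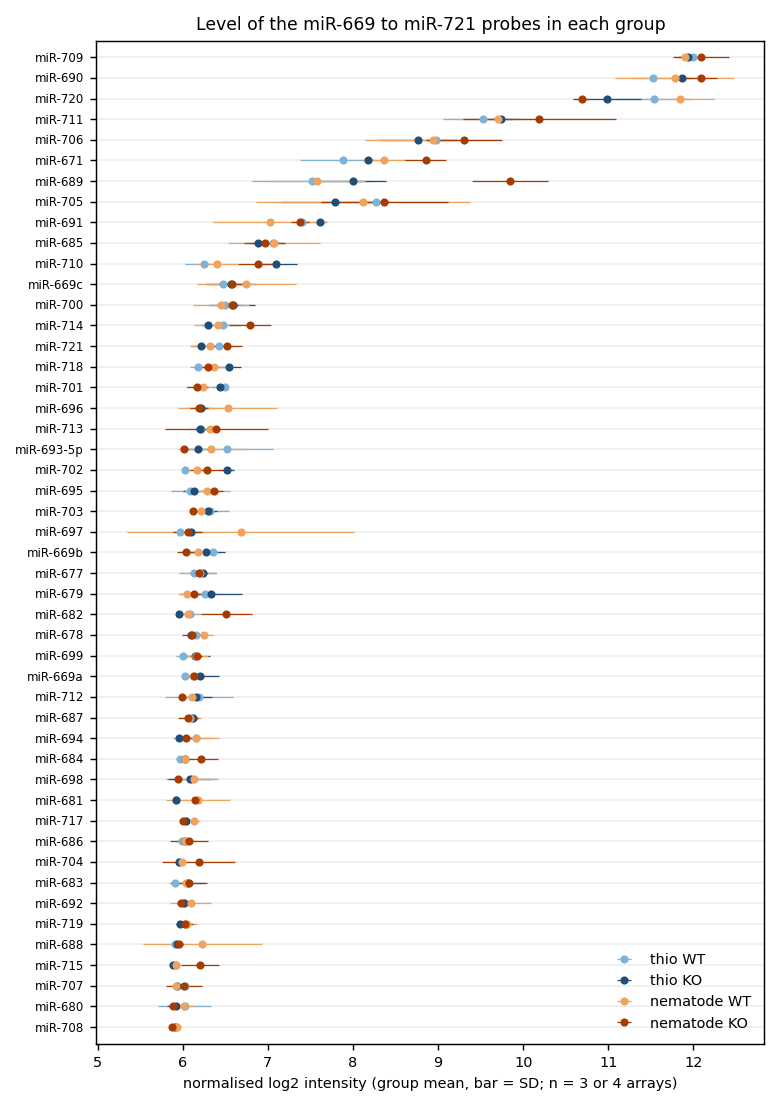
Mean normalised log2 intensity of each of the 48 probes in the 4 groups (points; bars are the SD of 3 or 4 arrays; WT is wild type, KO is IL-4R KO, thio is thioglycollate), ordered by the mean over 14 arrays. The upper 8 probes have means over 8, most others lie near 6, and miR-689 is set apart in nematode IL-4R KO.

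Among 48 members, 3 differences passed limma's test (adjusted p under 0.05 over all 343 mouse probes), and they concerned miR-689 and miR-720. In nematode-elicited cells, 1 member was higher in the wild type (miR-720) and 1 lower (miR-689), where 1.75% of all mouse probes passed, 1.17% higher and 0.583% lower. In IL-4R KO cells, 1 member, miR-689, was higher after nematode than after thioglycollate elicitation, where 1.46% of all mouse probes passed, 0.875% as higher. No member passed between the elicitations in wild type (0.875% of all mouse probes; 2 members at an unadjusted p under 0.05, against 10.8%). None passed between the genotypes after thioglycollate (0.292%; 3 members at an unadjusted p under 0.05, against 4.08%), and none for the interaction of elicitation and genotype (0.583%; 6 members, against 6.71%). At an unadjusted p under 0.05 there were 7 of 48 members between genotypes after nematode elicitation, against 12.5% of all mouse probes, and 6 between elicitations in IL-4R KO, against 9.62%. The members' shares lay on either side of those of all mouse probes and are not read as a result about the set.

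**Figure D2:**
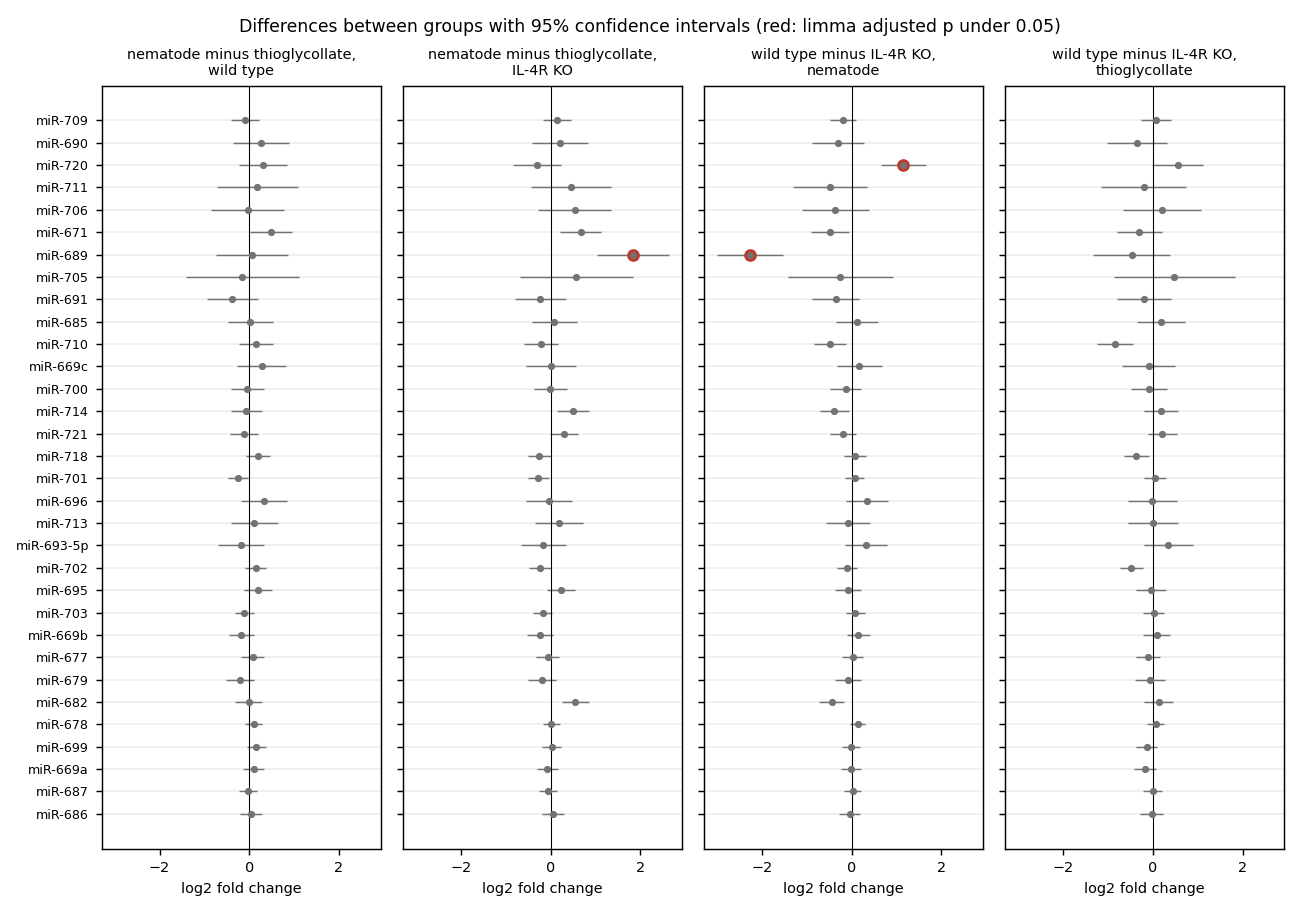
Differences in log2 intensity for the 32 members above blanks on 3 or more arrays, in the 4 comparisons of 2 groups (points; bars are 95% confidence intervals; red marks a limma adjusted p under 0.05). The red points are miR-689 at 1.85 and -2.27 and miR-720 at 1.15, and most other members lie near 0.

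The median difference of the members stayed close to 0 in every comparison of 2 groups. It was 0.04 for nematode minus thioglycollate in wild type (-0.02 over all mouse probes) and 0.01 in IL-4R KO (-0.04). It was -0.01 for wild type minus IL-4R KO after nematode (-0.00) and -0.01 after thioglycollate (0.00). Between 35 and 42 of the 48 members differed by less than 0.3 in each. The nematode comparison of genotypes had the fewest such members, 35, and the comparison of elicitations in wild type the most, 42.

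miR-689 was far brighter in nematode-elicited IL-4R KO cells than in the other groups. Its log2 intensity was 9.78, 10.39, 9.90 and 9.31 on the nematode IL-4R KO arrays and 8.07, 7.47, 7.94 and 6.82 on the nematode wild type arrays. On the thioglycollate arrays it was 7.62, 7.99 and 8.39 in IL-4R KO and 8.07, 6.71 and 7.79 in wild type. Every nematode IL-4R KO array was above every array of the other groups, and the other 3 groups overlapped each other.

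The wild type level of miR-689 after nematode elicitation was 4.82-fold lower (log2 difference -2.27, SE 0.34, 95% confidence interval -3.01 to -1.53; limma adjusted p = 0.00131). In IL-4R KO cells it was 3.60-fold higher after nematode elicitation (log2 difference 1.85, SE 0.37, interval 1.05 to 2.65; limma adjusted p = 0.0231). The same contrasts in the other arms gave -0.48 (interval -1.33 to 0.38; adjusted p = 1; 0.17 within slide 12) between genotypes after thioglycollate and 0.05 (interval -0.75 to 0.85; adjusted p = 0.973) between elicitations in wild type. These contrasts share arrays of the 4 groups. The interaction was -1.79 (SE 0.52; interval -2.93 to -0.66), with a limma adjusted p of 0.217, so a difference between the contrasts did not pass.

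The call between genotypes was made in each of 15 other settings (adjusted p from 0.000562 to 0.0131) and with any 1 of the 14 arrays left out (0.000813 to 0.00804). None of these separates genotype from slide, since no slide held nematode arrays of both genotypes. The call between elicitations ended with median scaling (adjusted p = 0.0517). It also ended without thioglycollate IL-4R KO replicate 1 (adjusted p = 0.165) or 2 (0.0878), or nematode IL-4R KO replicate 1 (0.0540) or 2 (0.0680).

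In net intensity, before normalisation, miR-689 read 772, 1052, 1152 and 583 units on the nematode IL-4R KO arrays. It read 374, 149, 152 and 87.6 on the nematode wild type arrays, the last of these below the blank percentile of its array. The thioglycollate arrays read 136, 260 and 295 in IL-4R KO and 213, 38.9 and 114 in wild type. The order of the groups was thus visible in the deposited signal, with the lowest nematode IL-4R KO array above the highest of the others.

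**Figure D3:**
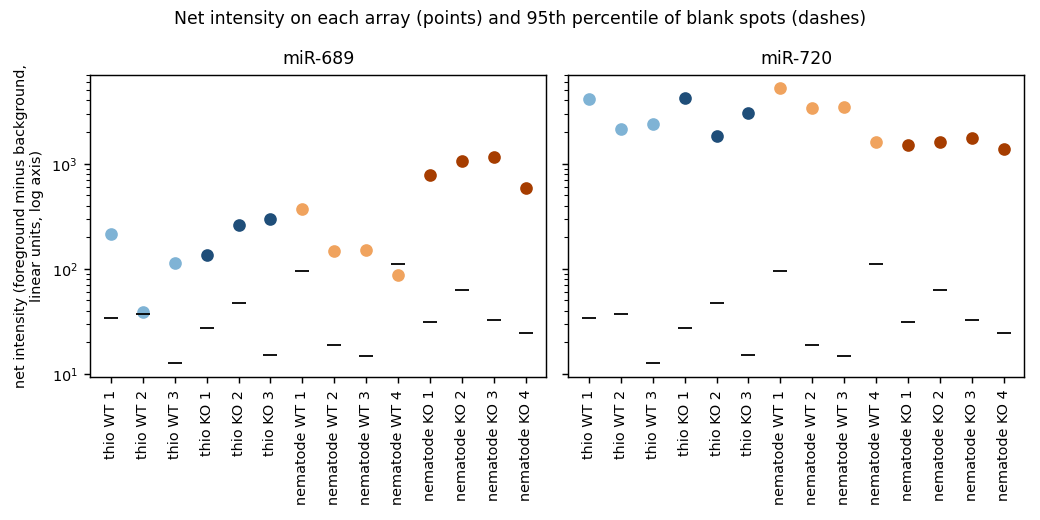
Net intensity in linear units on a log axis for miR-689 and miR-720 on each of 14 arrays (points, coloured by group), with the 95th percentile of that array's blank and negative control spots (dashes). miR-689 is highest on the 4 nematode IL-4R KO arrays, at 583 to 1152 units, and miR-720 is far above the blanks on every array.

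The probe whose values ran most like those of miR-689 over the 14 arrays was miR-150, a miRNA abundant in mature lymphocytes (Pearson r = 0.856). It was followed by miR-671 (0.787), a member, and miR-292-5p (0.779). These are descriptions over arrays that share their groups and normalisation. The 5 lymphocyte markers, all measured, had a summed net intensity of 187 to 269 on the nematode IL-4R KO arrays and 86.7 to 189 on the nematode wild type arrays. The sums were 143 to 185 on the thioglycollate IL-4R KO arrays and 102 to 204 on the thioglycollate wild type arrays. The ranges of nematode IL-4R KO thus overlapped those of both wild type groups. miR-150 itself read 97.1 to 158 units on the nematode IL-4R KO arrays (log2 mean 7.23). It read 9.80 to 40.0 on the nematode wild type arrays (6.27), 19.9 to 33.6 on the thioglycollate IL-4R KO arrays (6.22) and 13.96 to 18.5 on the thioglycollate wild type arrays (6.10). It was thus higher on every nematode IL-4R KO array than on any other. miR-342 was not: its log2 mean was 6.49 in nematode IL-4R KO, 6.39 in nematode wild type, 6.90 in thioglycollate IL-4R KO and 7.19 in thioglycollate wild type. On nematode IL-4R KO arrays, 2 of these 5 markers were above blanks on at least 3 arrays and 2 on none. The part of lymphocytes in the miR-689 difference was not tested, and in these bulk samples fewer cells of a type and less RNA per cell cannot be told apart.

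miR-720, a name now attached to a piece of a tRNA, was, after nematode elicitation, higher in the wild type. Its log2 intensity was 11.80, 11.38, 12.37 and 11.80 on the nematode wild type arrays and 10.72, 10.72, 10.58 and 10.72 on the nematode IL-4R KO arrays. On the thioglycollate arrays it was 11.80, 11.80 and 11.00 in wild type and 11.38, 10.58 and 11.00 in IL-4R KO. After nematode elicitation the genotypes did not overlap, while after thioglycollate they did. Its repeated values are ranks: quantile normalisation gives a probe the shared value of its rank, and miR-720 ranked between 3 and 7 among the named probes on 13 arrays and at 1 on the other.

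The nematode difference was 2.22-fold (log2 difference 1.15, SE 0.23, 95% confidence interval 0.65 to 1.65; limma adjusted p = 0.0150). After thioglycollate it was 0.55 (interval -0.03 to 1.13; adjusted p = 1), and between the 2 arrays of slide 12 it was -0.38. The elicitation contrasts were 0.30 in wild type (adjusted p = 0.730) and -0.30 in IL-4R KO (adjusted p = 0.763), and the interaction 0.60 (interval -0.16 to 1.36; adjusted p = 0.904).

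In net intensity miR-720 read 5229, 3423, 3471 and 1623 units on the nematode wild type arrays and 1514, 1621, 1739 and 1374 on the nematode IL-4R KO arrays. The genotypes overlapped there, since nematode wild type replicate 4 read less than nematode IL-4R KO replicate 3. The call ended with median scaling (log2 difference 0.97, adjusted p = 0.218) and with no normalisation (1.00, adjusted p = 0.229). It was made with any 1 of the 14 arrays left out, with a highest adjusted p of 0.0475. As for miR-689, genotype and slide cannot be told apart in this contrast.

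**Figure D4:**
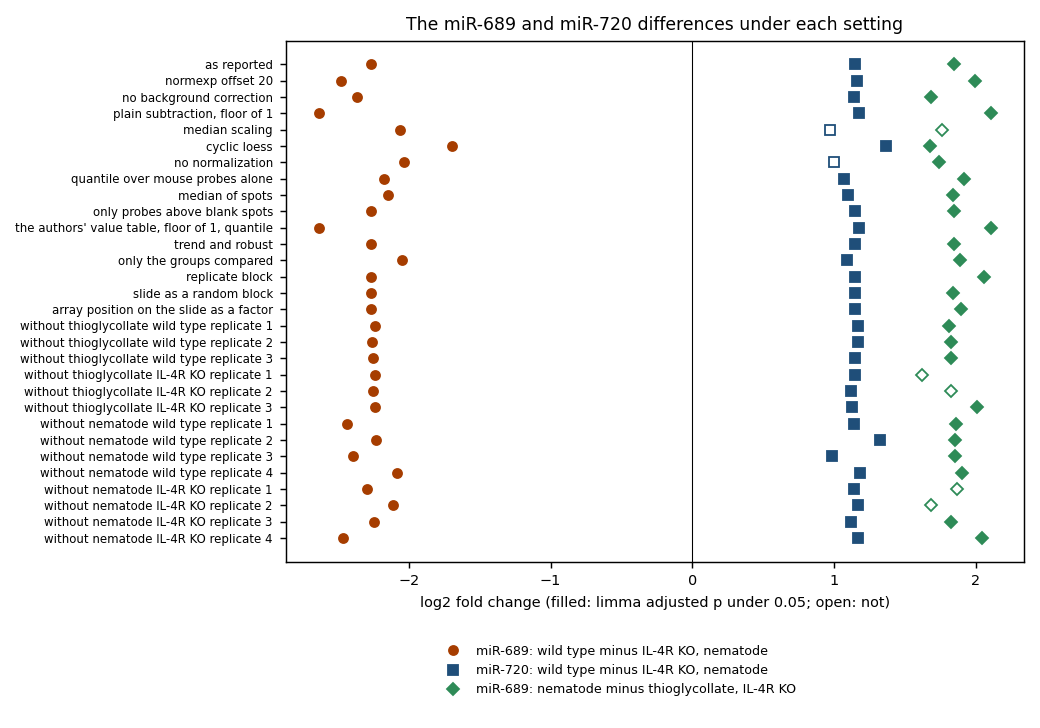
Log2 difference (horizontal axis) of the 3 member calls under the reported fit, 15 other settings and with each of 14 arrays left out (rows; filled points passed at a limma adjusted p under 0.05, open ones did not). miR-689 between genotypes is filled in all rows, miR-720 is open with median scaling and no normalisation, and miR-689 between elicitations is open with median scaling and in 4 of the 14 rows with an array left out.

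The probes most like miR-720 over the 14 arrays were miR-125b (r = 0.881), miR-223 (0.809), the miRNA of granulocytes and monocytes, and miR-22 (0.762). miR-223 read 1505 to 2126 units in nematode wild type and 734 to 895 in nematode IL-4R KO. Of the other myeloid markers, miR-21, miR-142-3p, miR-146 and miR-155 had lower log2 means in nematode wild type, and miR-142-5p a slightly higher one. The part of myeloid cells in the miR-720 difference was not tested. The 12 small nuclear and nucleolar RNA probes on the arrays, other short non-coding RNAs, were fitted with median scaling. None passed in any comparison, and for wild type minus IL-4R KO after nematode they ran from -0.53 to 0.62, with a median of -0.13.

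**Figure D5:**
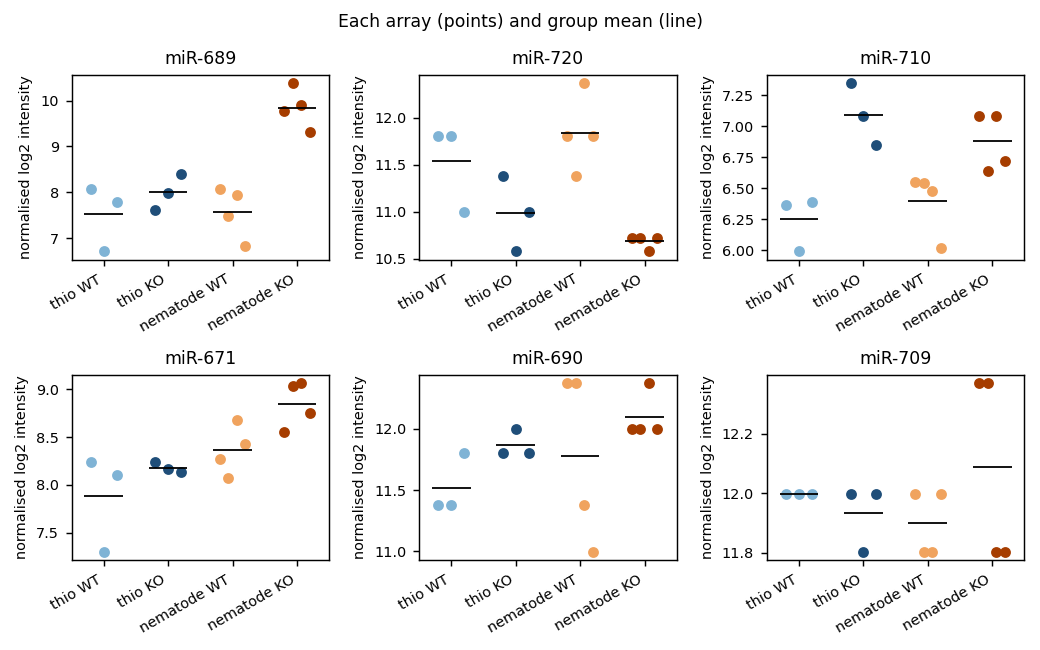
Normalised log2 intensity of 6 probes on each array (points) with the group mean (line); each panel has its own axis. miR-689 is high in nematode IL-4R KO, miR-720 is lowest there, miR-710 is higher in IL-4R KO under both elicitations, and miR-709 overlaps between groups.

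In normalised log2 intensity, miR-710 was lower on every wild type array than on every IL-4R KO array of the same elicitation, without passing the test in either. Its log2 intensity was 6.36, 5.99 and 6.39 in thioglycollate wild type and 7.35, 7.08 and 6.85 in thioglycollate IL-4R KO. It was 6.55, 6.54, 6.47 and 6.02 in nematode wild type and 7.08, 6.64, 7.08 and 6.72 in nematode IL-4R KO. On this scale the genotypes did not overlap within either elicitation, as was so for 11.1% of all mouse probes after thioglycollate and 9.04% after nematode elicitation. In net intensity they did overlap after nematode elicitation, at 13.35 to 80.85 units in wild type and 51.09 to 104.3 in IL-4R KO.

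The log2 difference of miR-710 after thioglycollate was -0.85 (SE 0.19, 95% confidence interval -1.25 to -0.44; limma adjusted p = 0.0938), and -0.96 on slide 12. After nematode elicitation it was -0.48 (SE 0.16, interval -0.83 to -0.13; limma adjusted p = 0.180). The probe was dim. It was above blanks on 1 of 3 thioglycollate and 2 of 4 nematode wild type arrays, and on all 7 IL-4R KO arrays. The thioglycollate difference did pass in 4 of 15 settings, among them plain subtraction (-1.94, adjusted p = 0.0410) and the authors' value table, which gave the same values, so these are 3 distinct settings. It also passed without nematode wild type replicate 4 (0.0359) or nematode IL-4R KO replicate 2 (0.0421).

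In IL-4R KO cells, 10 members had elicitation groups that did not overlap, where 15.7% of all mouse probes had such groups. Of these, 7 were higher after nematode elicitation, miR-689 among them (4.96% of all mouse probes), and 3 were lower (10.8%): miR-701, miR-702 and miR-703, the last named after its values were seen. Only miR-689 passed. miR-671, whose hairpin lies in Chpf2, had log2 intensities of 8.55, 9.04, 9.06 and 8.75 there and 8.24, 8.17 and 8.13 on the thioglycollate IL-4R KO arrays. These did not overlap (log2 difference 0.67, SE 0.21; limma adjusted p = 0.184). Its values were 8.28, 8.07, 8.68 and 8.43 in nematode wild type, which reached into the nematode IL-4R KO range, and 8.24, 7.30 and 8.10 in thioglycollate wild type. It passed with the median of spots (0.83, adjusted p = 0.0272) and in a fit on only the groups compared (0.67, adjusted p = 0.0399).

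miR-682 was near the blank level, at 6.64, 6.30, 6.23 and 6.87 in nematode IL-4R KO and 5.91, 5.96 and 6.00 in thioglycollate IL-4R KO. In nematode wild type it was 6.01, 5.99, 6.20 and 6.05. It was above blanks on 2 nematode IL-4R KO arrays and on none of the nematode wild type or thioglycollate IL-4R KO arrays, so its level there has only an upper bound. The fitted differences were 0.55 between elicitations in IL-4R KO (limma adjusted p = 0.0715) and -0.45 between genotypes after nematode (limma adjusted p = 0.101). The first ran from 0.28 to 1.25 over the 15 other settings, passed in 5 of them and without nematode IL-4R KO replicate 3. The second passed in 2 settings and without the same array. On replicates 1 and 4 of nematode IL-4R KO, the 2 highest, the 3 spots of miR-682 differed among themselves with an SD of 1.14 and 1.42 on the log2 scale.

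miR-714 and miR-715 also lay higher in nematode than in thioglycollate IL-4R KO, with no overlap, at 0.50 and 0.32 (limma adjusted p = 0.184 for both). miR-714 was named after its values were seen. miR-715 was above blanks on 2 of 14 arrays, and miR-714 on 9. With cyclic loess miR-714 passed between elicitations in IL-4R KO (0.55, adjusted p = 0.0101) and between genotypes after nematode elicitation (-0.41, adjusted p = 0.0395).

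miR-709 and miR-690 were the brightest members and showed no difference that passed. miR-709, a mouse miRNA found in the nucleus as well as the cytoplasm, was among the 3 brightest named probes on every array, with net intensities of 1957 to 6789 units. Its log2 intensity was 11.998 on all 3 thioglycollate wild type arrays and 11.80, 11.998 or 12.37 on the others. All its comparisons of 2 groups lay between -0.19 and 0.15, with adjusted p values of at least 0.567. Because normalisation fixes the values of the top ranks, a change common to the brightest probes would be lost from these differences.

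miR-690, which macrophages polarised by IL-4 release in exosomes in mice, ranked between 1 and 5 among the named probes of an array, with net intensities of 1438 to 8091 units. Its log2 intensities were 12.37, 12.37, 11.38 and 11.00 in nematode wild type and 11.998, 11.998, 12.37 and 11.998 in nematode IL-4R KO. They were 11.38, 11.38 and 11.80 in thioglycollate wild type and 11.80, 11.998 and 11.80 in thioglycollate IL-4R KO. The nematode wild type arrays covered the widest span. The groups of each comparison touched or overlapped, while thioglycollate wild type lay wholly below nematode IL-4R KO, a pair that differs in both elicitation and genotype and was not tested. The nematode genotype difference was -0.31 (95% confidence interval -0.89 to 0.27; adjusted p = 0.617). The thioglycollate one was -0.35 (interval -1.02 to 0.32; adjusted p = 1), and the elicitation differences were 0.26 in wild type and 0.22 in IL-4R KO.

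miR-711, miR-706, miR-705 and miR-691, all with hairpins inside protein-coding genes, showed no difference that passed. Their SD differed between groups. The widest lay in nematode wild type for miR-706 (0.80), miR-705 (1.25) and miR-691 (0.67), and in nematode IL-4R KO for miR-711 (0.90), while the narrowest of each probe lay between 0.08 and 0.15 in a thioglycollate group (SD, n = 3 or 4). miR-711 ran from 8.996 to 11.38 over the 14 arrays, with both its highest value and a value of 9.46 in nematode IL-4R KO. miR-706 ran from 7.87 to 9.90 and miR-705 from 6.31 to 9.38, and both had their lowest value on nematode wild type replicate 4, as did miR-691 at 6.04. The 95% confidence interval of miR-705 for wild type minus IL-4R KO was -1.42 to 0.91 after nematode and -0.87 to 1.83 after thioglycollate elicitation, so differences of more than 1 on the log2 scale lie within both. For miR-691 the thioglycollate wild type values (7.50, 7.36 and 7.34) lay below those of thioglycollate IL-4R KO (7.52, 7.62 and 7.68), with a difference of -0.21 (adjusted p = 1).

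The miR-669 probes, from the Sfmbt2 intron cluster, did not differ detectably between any groups. miR-669c was above blanks on 11 arrays, miR-669b on 5 and miR-669a on 3. miR-669c read 6.44, 6.45, 6.48 and 7.62 in nematode wild type, so that replicate 4 alone set that group's SD of 0.58 (n = 4). In the other groups it lay between 6.26 and 6.91. Over the 3 probes the differences between groups ran from -0.24 to 0.28. The cluster's other miRNAs on the array, 6 probes named miR-297, miR-466 or miR-467, had 0 past the threshold in each of the 5 comparisons. Their differences between 2 groups ran from -0.63 to 0.17, with medians of -0.04 to 0.12.

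Members with a known origin or target were mostly dim. miR-708, from an intron of Tenm4, was above blanks on no array, with log2 intensities of 5.85 to 5.99. miR-712, cut in mouse from the spacer of the ribosomal RNA precursor and studied in endothelium, was above blanks on 2 arrays. miR-721, which has the miR-130 seed shown above, was above blanks on 7 arrays, and its group means ran from 6.22 to 6.51. None of their differences passed.

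miR-702, whose hairpin is a short intron of Plod3 spliced out without Drosha cutting (a mirtron), read lower on all thioglycollate wild type arrays than on all thioglycollate IL-4R KO arrays. It read 6.04, 6.05 and 6.00 against 6.61, 6.49 and 6.44, a difference of -0.49 (SE 0.12; limma adjusted p = 0.0938), and -0.61 on slide 12. It was above blanks on 1 of 3 thioglycollate wild type and 2 of 3 thioglycollate IL-4R KO arrays, and over the 15 other settings the difference ran from -1.45 to -0.39. It passed only without nematode IL-4R KO replicate 2 (adjusted p = 0.0325), among the 14 arrays left out in turn and the 15 settings. miR-718, within Irak1, a kinase gene of Toll-like receptor signalling, had the same order, at 6.12, 6.13 and 6.27 against 6.55, 6.67 and 6.4003 (difference -0.37, SE 0.13; limma adjusted p = 0.513; -0.28 within slide 12).

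miR-696, which represses the coactivator Pgc-1alpha in mouse muscle, read 6.16, 6.16, 6.42 and 7.38 in nematode wild type and 6.03 to 6.26 in nematode IL-4R KO. The group difference was 0.34 (SE 0.22; limma adjusted p = 0.558) and its size came from replicate 4. miR-693-5p read 6.91, 6.18, 6.06 and 6.17 in nematode wild type against 6.04, 5.97, 6.00 and 6.06 in nematode IL-4R KO (0.31, SE 0.22; limma adjusted p = 0.566), and the difference was 0.11 without nematode wild type replicate 1. miR-701, in Ttc28, was lower on every nematode array than on every thioglycollate array of its genotype, by 0.25 in wild type (limma adjusted p = 0.421) and 0.27 in IL-4R KO (0.371). In wild type, 3 members had such groups without overlap, against 7.87% of all mouse probes. miR-679 had differences between elicitations of -0.21 in wild type and -0.20 in IL-4R KO, with adjusted p values of 0.666 and 0.729.

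Across all 48 members, the highest difference between elicitations in wild type belonged to miR-697, a dim probe named after its values were seen. It was 0.71 (SE 0.51) and rested on nematode wild type replicate 4, where the probe read 8.68 against 5.98 to 6.04 on the other arrays of that group. Without that array the difference was 0.05 (SE 0.10). The same array also gave the highest readings of miR-669c, miR-696, miR-688 (7.27) and miR-681 (6.74).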

How the data were processed

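Total RNA of 14 samples was labelled with Hy3 and hybridised to miRCURY LNA arrays, 1 array per sample. The deposited slide files hold foreground intensity per spot on a linear scale, neither background subtracted nor normalised, per the file headers. The authors' value table equals foreground minus local background for the same spots, so local background was taken as their difference. Sources used here do not name the scanner software.

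With limma 3.58.1 (R 4.3.3), normexp (offset 50) background correction was followed by log2, the mean over a probe's spots and quantile normalisation over the named miRNA probes. Differences of dim probes are compressed by the offset and by this normalisation, which also fixes the top ranks. Differences were fitted with lmFit and eBayes (1 mean per group, 14 arrays, all 343 mouse probes, two-sided), with Benjamini-Hochberg adjustment within each comparison. The fit was tested on simulated data.

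Named with values were members past the threshold, miR-689, miR-710, miR-720, the 6 brightest, the 3 highest and 3 lowest differences per comparison among members above blanks on at least 3 arrays, and members of known origin. Members and lists were chosen with earlier results of these data known. Replicate numbers were not used to pair the samples, since the labels state no pairing. Deviations of same-numbered arrays correlated at -0.17 to 0.32, which does not settle whether the samples were paired. Sequences are from RefSeq, GRCm38.p6, with a chromosome left out of the search for mature strands, seed partners and hairpins. Alternatives covered background, normalisation, spot summary, filter, variance model, samples, replicate block, slide, position and leaving out each array.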

Additional observations from a re-analysis of the deposited data

Results flagged for a closer look

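Within groups of 4 arrays, 6 of 48 sets of values for the named members had an end value far from the other 3 by Dixon's criterion. Chance meets it in about 1 of 20 sets that were not chosen by their values. Some of these members were named for their differences on the same arrays, so that rate does not hold for them. In nematode wild type, miR-669c read 7.62 on replicate 4 against 6.44 to 6.48 on the others. miR-693-5p read 6.91 on replicate 1 against 6.06 to 6.18. miR-710 read 6.02 on replicate 4, the lowest, against 6.47 to 6.55.

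In nematode IL-4R KO, miR-696 read 6.03 on replicate 1 against 6.23 to 6.26. miR-690 read 12.37 on replicate 3 against 11.998 on each of the others, and miR-720 read 10.58 on replicate 3 against 10.72. For both, the 3 others share a value because they share a rank after quantile normalisation, so their gap is a step between ranks. The net intensity of miR-720 on that array, 1739 units, was the highest of its group, not the lowest.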

How the results depend on the processing

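Counts of members past the threshold were recomputed under 15 other settings and with each of the 14 arrays left out. Plain subtraction and the authors' value table gave the same values, so 14 of the 15 settings are distinct. No called value changed sign. Between genotypes after nematode elicitation the count of 2 became 4 with cyclic loess (miR-682 and miR-714 added) and 1 with no normalisation (miR-720 lost). With arrays left out it ran from 2 to 3. With median scaling it stayed at 2, but miR-682 (limma adjusted p = 0.0498) took the place of miR-720. Between elicitations in IL-4R KO the count of 1 became 3 with cyclic loess. It became 2 with an offset of 20, no normalisation, the median of spots, trend and robust, or only the groups compared, and ran from 0 to 2 with arrays left out. With median scaling it stayed at 1, but miR-682 (limma adjusted p = 0.0335) took the place of miR-689 (0.0517). Between genotypes after thioglycollate the count of 0 became 1, miR-710, with plain subtraction, with the authors' value table, with the array position as a factor and with the replicate block; with arrays left out it ran from 0 to 2, the higher end without nematode IL-4R KO replicate 2.

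The labels state no pairing of same-numbered arrays. Of the arrays of the first group in a comparison, 0 of 3, 0 of 4, 1 of 3 and 1 of 3 correlated best with their own number. With the replicate block, miR-710 had an adjusted p of 0.0330 after thioglycollate, and the other 4 counts stayed as reported. With no normalisation the median of all mouse probes moved to 0.10 between elicitations in wild type and to 0.14 for the interaction. The 24 members named by the stated rules gave 3465 values over the settings and arrays left out. Of these, 3253 kept their sign and their side of the threshold, and 187, none of them called, did not keep their sign. A further 18 came to pass and 7 no longer passed. Differences within the slide shared by the thioglycollate genotypes have no p-value and were counted by sign only. Members named after their values were seen, such as miR-714, which passed with cyclic loess, were not among the 24. Signal limits most members: 16 of 48 were above blanks on fewer than 3 arrays.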
